A study of Mustela putorius furo with 2 samples.

Results

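Astrocytes clear transmitter, water and ions from the space around synapses, and 7 genes of that work are described here across nuclei of the ferret cortex: the glutamate transporters SLC1A2 (ENSMPUG00000011697) and SLC1A3 (ENSMPUG00000015046), the water channel AQP4 (ENSMPUG00000006589), the gap junction genes GJA1 (ENSMPUG00000014446) and GJB6 (ENSMPUG00000020068), the sodium bicarbonate cotransporter SLC4A4 (ENSMPUG00000009370) and the neutral amino acid exchanger SLC7A10 (ENSMPUG00000007598). They were chosen by symbol. All 7 had 1 row each among the 28156 features of both matrices.

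SLC1A2 and SLC1A3 take glutamate up from the synaptic cleft into the astrocyte, where glutamine synthetase (GLUL) turns it into glutamine. AQP4 sits mainly in the end-feet that astrocytes place on blood vessels, held there by the dystrophin complex, and the connexins made from GJA1 and GJB6 join astrocytes into a network that passes ions and small molecules. SLC4A4 moves bicarbonate together with sodium and so acts on pH, and SLC7A10 exchanges glycine, D-serine and other small neutral amino acids, paired with the heavy chain SLC3A2.

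Single-nucleus RNA-seq was made from frozen somatosensory cortex of ferrets (Mustela putorius furo) on the 10x droplet platform. Both libraries carry the genotype DCX knockout, although the series text speaks of a knockdown. The DCX protein binds microtubules in neurons as they migrate. The cortical region is given as the upper band for one library and as the deeper band for the other. The labels state no age, sex or number of animals, wild-type tissue is not analysed here, and the titles call the libraries mutant replicates 1 and 2 although their regions differ. With 1 library per band, a difference between bands cannot be told apart from one between library preparations or animals, and no test or p-value is given.

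The matrices held 7151 barcodes with 66253015 unique molecular identifiers (UMIs) in the upper band and 9694 barcodes with 78352064 UMIs in the deeper band, and 24 barcode sequences occurred in both. After the filters 6261 and 8150 nuclei remained. DCX itself had 4111 UMIs (78.5 CPM, counts scaled to a total of 1000000) in the upper band and 4121 UMIs (77.2 CPM) in the deeper band, which without a control does not check the genotype. Nuclei formed 27 clusters, of which 23 were named from marker lists that hold none of the 7 genes, and the 7 genes were also left out of the clustering. The astrocyte-like class had 388 nuclei (6.2% of the library) in the upper band and 806 nuclei (9.89%) in the deeper band, with median UMI counts of 2804 and 2420, and all 15 astrocyte markers were detected in both. This class consisted of 2 clusters. The larger, called CD44/GFAP-low, had 386 and 721 nuclei, and the CD44/GFAP-high one had 2 and 85 nuclei, so nearly all of it came from the deeper-band library.

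Values below are CPM of the summed UMIs of a class, with exact 95% Poisson intervals. Log2 ratios carry exact conditional binomial intervals and shares of nuclei carry exact Clopper-Pearson intervals, all at 95%. These intervals cover counting error only. No gene length of the files' annotation was used, so levels are compared between groups of nuclei and not between genes.

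All 7 genes were far higher in astrocyte-like nuclei than in the rest of their library. The excess was 33.5-fold in the upper band and 65.1-fold in the deeper band for SLC1A2, 39.1-fold and 66.8-fold for SLC1A3, 18.3-fold and 25.3-fold for AQP4, and 49.6-fold and 80.8-fold for GJA1. GJB6 had 34.7-fold and 37.4-fold on 9 and 29 astrocyte-like UMIs. SLC4A4 had 18.2-fold and 16.8-fold, and SLC7A10 had 41.0-fold and 82.5-fold. All 7 passed 4-fold in both libraries, where 6.35% of 17484 tested genes did so in the upper band and 6.94% of 17338 in the deeper band. They also passed it under each of the alternative settings tried.

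The astrocyte-like class still held only a part of each gene's RNA. It had 44.2% of the upper-band library's SLC1A2 UMIs (43.5 to 44.8%) and 71.6% of the deeper-band library's (71.1 to 72.2%). For SLC4A4 the shares were 30.0% (29.4 to 30.6%) and 39.3% (38.7 to 39.9%), so most SLC4A4 UMIs lay outside this class in both bands. AQP4 had 30.1% and 49.5%, and SLC7A10 had 49.1% and 76.2%. These shares also move with the number of nuclei per class and with the unnamed nuclei described further on.

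**Figure D1:**
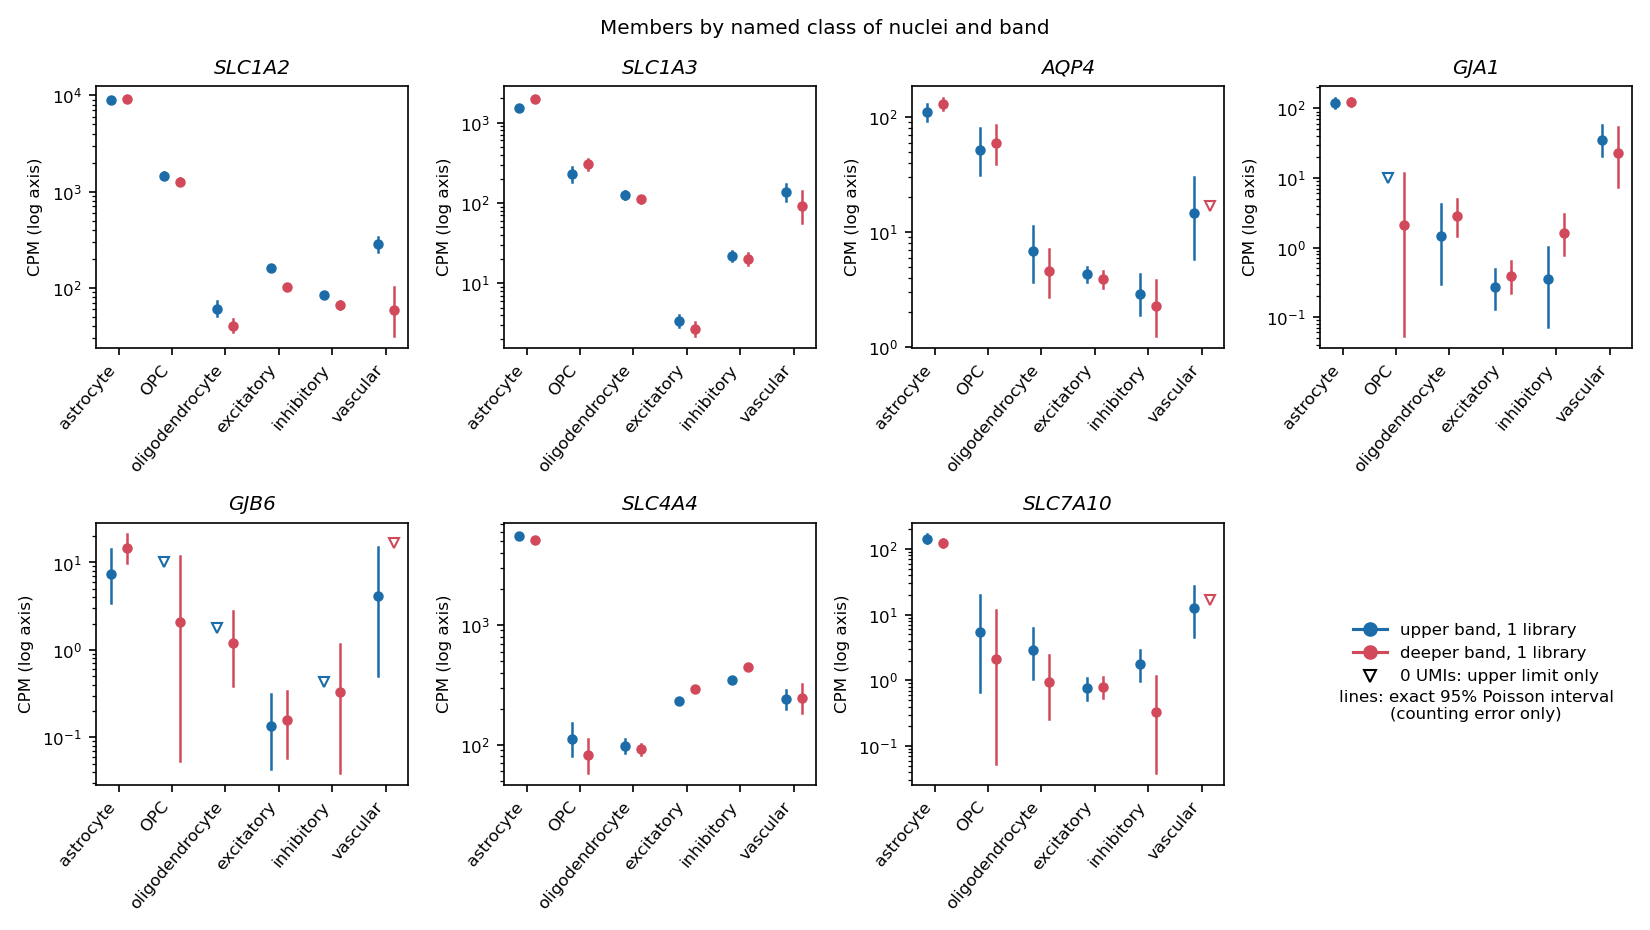
CPM of each of the 7 genes on a log axis in the 6 named classes of nuclei, with the upper-band library in blue, the deeper-band library in red, exact 95% Poisson intervals as lines and open triangles as upper limits where a class had 0 UMIs (OPC, oligodendrocyte precursor). The astrocyte-like class is at the top in every panel, SLC1A2 comes next in precursors at 1465 and 1262 CPM, and SLC4A4 comes next in inhibitory neurons at 346.9 and 446.2 CPM.

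The glutamate transporters were seen in nearly every astrocyte-like nucleus. SLC1A2 had 8819 CPM (8652 to 8988) in upper-band nuclei and 9245 CPM (9112 to 9380) in the deeper band, with a UMI in 100% and 99.8% of nuclei. SLC1A3 had 1507 CPM (1439 to 1578) and 1962 CPM (1901 to 2024), with a UMI in 96.4% and 96.2%. Oligodendrocyte-like nuclei, with median depths of 2204 and 1858.5 UMIs, are given here for comparison and not as a floor. The shares there were 13.3% and 7.42% for SLC1A2 and 23.5% and 17.7% for SLC1A3.

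AQP4 and the junction genes were seen in fewer nuclei. AQP4 had 109.5 CPM (91.6 to 129.8) in upper-band nuclei and 129.7 CPM (114.4 to 146.5) in the deeper band, with a UMI in 25% and 24.7% of astrocyte-like nuclei against 1.63% and 0.910% of oligodendrocyte-like nuclei. GJA1 had 120.3 CPM (101.5 to 141.5) and 122.7 CPM (107.8 to 139.1), with a UMI in 25.8% and 24.7% against 0.350% and 0.575%. GJB6 rested on 9 and 29 UMIs, or 7.46 CPM (3.41 to 14.2) and 14.6 CPM (9.76 to 20.9), and was seen in 2.32% and 3.60% of nuclei. At this depth the absence of a UMI from AQP4, GJA1 or GJB6 in a nucleus says little about that nucleus.

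SLC4A4 had 5583 CPM (5451 to 5718) in upper-band nuclei and 5096 CPM (4997 to 5196) in the deeper band and was seen in 99.7% and 98.3% of astrocyte-like nuclei, against 18.6% and 15.3% of oligodendrocyte-like nuclei. SLC7A10 had 143.5 CPM (122.9 to 166.5) and 123.7 CPM (108.7 to 140.1) and was seen in 33.8% and 24.2%, against 0.700% and 0.192%. When each nucleus was thinned to 1500 UMIs, which left out 14 and 52 astrocyte-like nuclei, the SLC7A10 shares were 20.3% (16.4 to 24.8%) and 16.0% (13.5 to 18.9%), with intervals that overlap.

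Several of the 7 genes were seen in most astrocyte-like nuclei, which follows from the high separate shares of SLC1A2, SLC1A3 and SLC4A4. At least 3 of the 7 were seen in 97.9% and 98.5% of CD44/GFAP-low astrocyte-like nuclei in the upper and deeper bands, against 16.8% and 14.5% of precursor-like nuclei, 3.78% and 3.33% of excitatory and 0.817% and 0.479% of oligodendrocyte-like nuclei. Excitatory nuclei had the greater depth, with medians of 10749 and 10387 UMIs. SLC1A2, SLC1A3 and SLC4A4 were all seen in 96.1% and 96.4% of CD44/GFAP-low nuclei. In CD44/GFAP-high nuclei of the deeper band, at least 3 of the 7 were seen in 85.9% and these 3 genes in 77.6%. Whether the genes occur together more often than their separate shares give was not tested.

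Between bands the astrocyte-like levels were close. SLC1A3 was the member with the clearest difference, higher in the deeper band by a log2 ratio of 0.38 (0.30 to 0.46). SLC1A2 had 0.07 (0.03 to 0.10), AQP4 0.24 (-0.06 to 0.56) and GJA1 0.03 (-0.27 to 0.34). SLC4A4 had -0.13 (-0.18 to -0.09) and SLC7A10 -0.21 (-0.50 to 0.07). GJB6 had 0.97, with an interval of -0.15 to 2.23 on its 38 UMIs. It was the only 1 of 7 past 1.5-fold higher in the deeper band, where 8.92% of the 10128 tested genes were, and 0 of 7 were past 1.5-fold lower, against 6.74%. The members' median log2 ratio was 0.07, beside 0.01 over all tested genes with a 5th percentile of -0.67 and a 95th of 0.78.

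**Figure D2:**
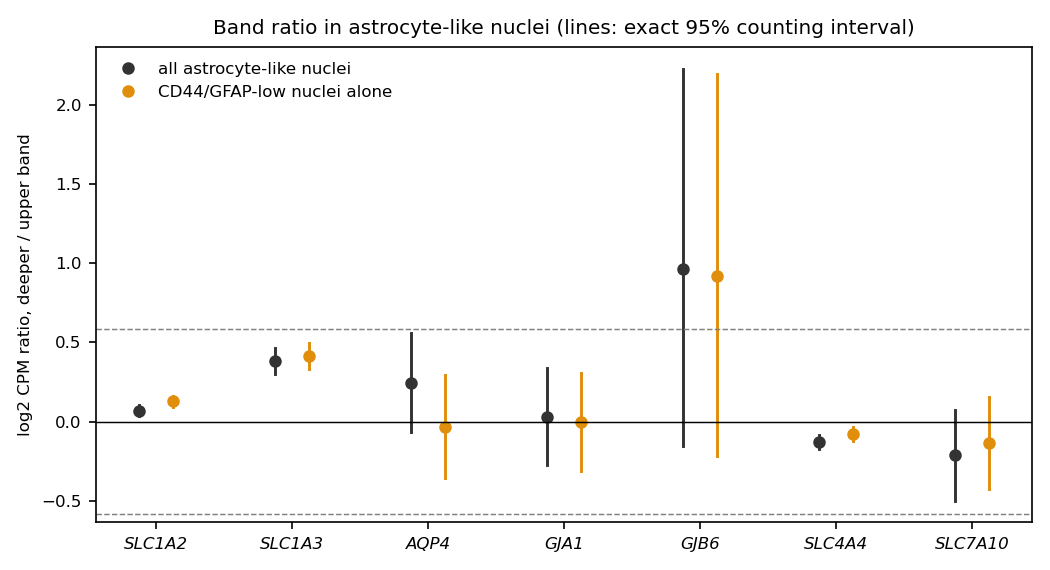
Log2 ratio of CPM in the deeper over the upper band for each gene, in all astrocyte-like nuclei (black) and in the CD44/GFAP-low nuclei alone (orange), with exact 95% intervals for counting error and dashed lines at 1.5-fold. SLC1A3 lies above 0 in both, AQP4 moves from 0.24 to -0.03 when the CD44/GFAP-high nuclei are left out, and the GJB6 interval spans most of the axis.

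Since the CD44/GFAP-high cluster of all nuclei clustered together was nearly all from the deeper band, the ratios were repeated in CD44/GFAP-low nuclei alone, a comparison added after the data were seen. SLC1A3 then had 1509 CPM in upper-band nuclei and 2012 CPM in the deeper band, with a log2 ratio of 0.42 (0.33 to 0.50). AQP4 had 109.9 and 107.4 CPM and a ratio of -0.03 (-0.36 to 0.30). SLC1A2 had 0.13 (0.09 to 0.16) and SLC4A4 -0.08 (-0.13 to -0.04). GJA1 had -0.01, SLC7A10 -0.14 and GJB6 0.92, each with an interval that held 0. GJB6 was again the 1 of 7 past 1.5-fold higher, against 8.04% of 9946 genes, and 0 of 7 were past it lower, against 7.59%. The members' median was -0.0057.

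The SLC1A3 difference was spread over the astrocyte-like nuclei. When these were clustered again on their own, without the 7 genes, 12 of the 13 subclusters had at least 9 upper-band nuclei, and SLC1A3 was higher in the deeper band in 12 of those 12. Its level there ran from 1205 to 1821 CPM in upper-band nuclei and from 1729 to 2169 CPM in the deeper band. The subclusters share the same 2 libraries and are not replicates. Not all were beyond counting error, as in one with a log2 ratio of 0.24 (-0.12 to 0.61). SLC1A2 was higher in the deeper band in 8 of the 12, SLC4A4 in 7 and AQP4 in 9, although the summed AQP4 level of CD44/GFAP-low nuclei was close in both bands. The direction of SLC4A4 also depended on which clusters were counted as astrocyte-like. With the unnamed cluster of mixed astrocyte and oligodendrocyte markers added, its ratio was 0.13. SLC1A3 was also higher in the deeper band in that mixed cluster, at 0.32 (0.12 to 0.51), and in precursor-like nuclei, at 0.41 (0.01 to 0.82). In the remaining named classes SLC1A3 was lower in the deeper band, each within counting error.

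The CD44/GFAP-high cluster, with only 2 upper-band nuclei, was compared with CD44/GFAP-low nuclei in the deeper band. AQP4 had 61 UMIs or 394.2 CPM (301.5 to 506.4) in them and 197 UMIs or 107.4 CPM (92.9 to 123.5) in CD44/GFAP-low nuclei, a log2 ratio of 1.88 (1.44 to 2.30). SLC7A10 had 6 UMIs or 38.8 CPM (14.2 to 84.4) against 240 UMIs or 130.8 CPM (114.8 to 148.5), a ratio of -1.75 (-3.22 to -0.61). The water channel was thus higher and the amino acid exchanger lower in the same 85 nuclei.

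The make-up of the CD44/GFAP-high class depended on the clustering. When astrocyte-like nuclei were clustered on their own, 2 of the 13 subclusters met the same rule, which sums both libraries. One had 2 upper-band and 105 deeper-band nuclei and one had 56 and 36. In the 36 nuclei GFAP had only 4 UMIs or 42.9 CPM, below the 72.9 CPM of all deeper-band astrocyte-like nuclei. CD44 had 3 UMIs or 32.2 CPM there, against 16.6 CPM. The subcluster with 105 deeper-band nuclei had AQP4 at 307.9 CPM, SLC1A2 at 5434 CPM and SLC7A10 at 39.7 CPM in the deeper band. The subcluster with nuclei of both bands had AQP4 at 194.4 CPM (138.9 to 264.7) in upper-band and 182.5 CPM (106.3 to 292.2) in deeper-band nuclei, but SLC1A2 at 8175 and 9695 CPM and SLC7A10 at 106.9 CPM (67.0 to 161.9) and 128.8 CPM (66.6 to 225.0). Low SLC1A2 and SLC7A10 were thus seen in the nearly all deeper-band subcluster and not in the other. The ratios over both subclusters count the 36 nuclei as CD44/GFAP-high despite their GFAP level. In the deeper band these log2 ratios were 1.34 for AQP4, -0.97 for SLC7A10, -0.51 for SLC1A2, -0.52 for SLC4A4 and -0.24 for SLC1A3.

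In the CD44/GFAP-high cluster of all nuclei clustered together, SLC1A2, SLC4A4 and SLC1A3 were lower than in CD44/GFAP-low nuclei of the deeper band. SLC1A2 had 4200 against 9671 CPM, a log2 ratio of -1.20 (-1.32 to -1.09). SLC4A4 had 2889 against 5282 CPM, a ratio of -0.87 (-1.01 to -0.73), and SLC1A3 had 1364 against 2012 CPM, a ratio of -0.56 (-0.77 to -0.36). The junction genes were not distinguishable at this depth, with GJA1 at 161.6 against 119.4 CPM, a ratio of 0.44 (-0.22 to 1.04), and GJB6 on 3 against 26 UMIs, a ratio of 0.45 (-1.92 to 2.16). Past 1.5-fold, 1 of 7 was higher and 3 of 7 were lower. Of the 8841 genes tested, 22.9% were past it higher and 21.7% lower, so changes of this size were common between these nuclei. The members' median was -0.56, beside 0.08 over all tested genes.

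**Figure D3:**
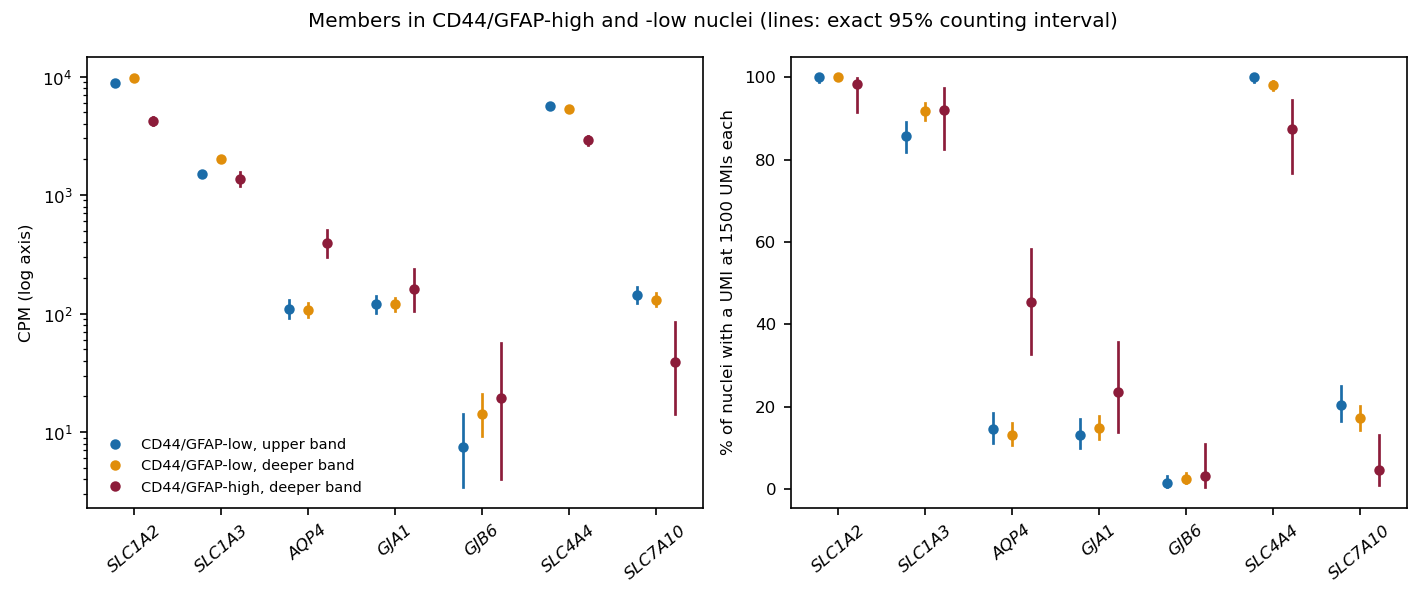
CPM on a log axis (left) and percent of nuclei with a UMI after thinning each to 1500 UMIs (right) for the 7 genes in CD44/GFAP-low nuclei of both bands and CD44/GFAP-high nuclei of the deeper band, with exact 95% intervals. AQP4 is above and SLC7A10, SLC1A2 and SLC4A4 are below both CD44/GFAP-low groups in the CD44/GFAP-high nuclei, and AQP4 is seen in 45.3% of them after thinning.

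Depth differed between these groups, with medians of 1740 UMIs in CD44/GFAP-high and 2479 UMIs in CD44/GFAP-low nuclei of the deeper band. After thinning to 1500 UMIs, 64 and 690 nuclei remained. AQP4 was then seen in 45.3% of CD44/GFAP-high nuclei (32.8 to 58.3%) and 13.2% of CD44/GFAP-low nuclei (10.8 to 15.9%), and SLC7A10 in 4.69% (0.977 to 13.1%) and 17.1% (14.4 to 20.1%). Both differences had the direction of the CPM values.

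Markers of other cells also differed between these nuclei. The 7 precursor markers with a row summed to 620.4 CPM in CD44/GFAP-high and 165.7 CPM in CD44/GFAP-low nuclei, but VCAN gave 95 of the 96 UMIs in CD44/GFAP-high nuclei and 5 of the 7 markers, PDGFRA among them, were at 0. The 10 oligodendrocyte markers with a row summed to 368.3 against 214.8 CPM, and 1 of the 10, CNP, was at 0. The 15 astrocyte markers summed to 3483 against 4637 CPM, with NTSR2 at 0. The part of these RNAs in the levels of the 7 genes was not tested.

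Inside the CD44/GFAP-low class, nuclei with a GFAP UMI were set against those without one, a split chosen after the data were seen. AQP4 had 161.9 against 99.2 CPM in 52 and 334 upper-band nuclei, a log2 ratio of 0.71 (0.09 to 1.29), and 141.5 against 102.3 CPM in 87 and 634 deeper-band nuclei, a ratio of 0.47 (-0.11 to 1.01). SLC7A10 had ratios of -0.27 (-0.95 to 0.34) and -0.65 (-1.37 to -0.0047). AQP4 thus stood higher and SLC7A10 lower beside GFAP in both libraries, with 2 of the 4 intervals clear of 0. These were AQP4 in the upper band and SLC7A10 in the deeper band, so neither gene was clear in both. GFAP enters both this split and the CD44/GFAP rule, so the split is not separate from the subtype comparison. CD44 had 7 against 2 UMIs in upper-band and 0 against 9 UMIs in deeper-band nuclei. SLC1A2 had -0.18 (-0.26 to -0.11) and -0.03 (-0.09 to 0.03), and the nuclei with a GFAP UMI were deeper, at medians of 3291 against 2744.5 UMIs and 2715 against 2453 UMIs.

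Oligodendrocyte precursor-like nuclei, 125 in the upper and 193 in the deeper band, carried some of the 7 genes and lacked others. SLC1A2 had 1465 CPM (1344 to 1594) and 1262 CPM (1163 to 1367) and was seen in 95.2% and 90.2% of them, at median depths of 2859 and 2363 UMIs. It was 24.2-fold and 31.2-fold above oligodendrocyte-like nuclei of similar depth. SLC1A3 had 227.9 CPM (181.8 to 282.1) and 302.9 CPM (255.5 to 356.7), or 1.82-fold and 2.74-fold above them. AQP4 rested on 19 and 28 UMIs, or 51.5 CPM (31.0 to 80.5) and 58.9 CPM (39.1 to 85.1), which was 7.60-fold and 12.9-fold above them. GJA1 had 0 and 1 UMI, GJB6 0 and 1 and SLC7A10 2 and 1.

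SLC4A4 did not differ beyond counting error between precursor-like and oligodendrocyte-like nuclei. It had 111.2 CPM (79.8 to 150.9) and 82.0 CPM (58.3 to 112.2) in precursor-like nuclei and 97.4 CPM (84.4 to 111.8) and 91.3 CPM (82.4 to 101.0) in oligodendrocyte-like nuclei, with ratios of 0.19 (-0.33 to 0.68) and -0.15 (-0.67 to 0.32). Astrocyte-like nuclei were 50.2-fold and 62.1-fold above precursor-like nuclei for SLC4A4, 6.02-fold and 7.32-fold for SLC1A2 and 2.12-fold and 2.20-fold for AQP4. In precursor-like nuclei the astrocyte markers summed to 347.2 and 330.3 CPM, against 4871 and 4547 CPM in astrocyte-like nuclei, and 5 of the 15 were at 0 in each library.

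The proportions among the genes therefore differed between the classes. For every 1000 SLC1A2 UMIs there were 633.1 SLC4A4 UMIs in astrocyte-like nuclei of the upper band and 551.2 in those of the deeper band, but 75.9 and 65.0 in precursor-like nuclei. For GJA1 the values were 13.6 and 13.3 in astrocyte-like and 0 and 1.67 in precursor-like nuclei, and for AQP4 they were 12.4 and 14.0 against 35.2 and 46.7.

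**Figure D4:**
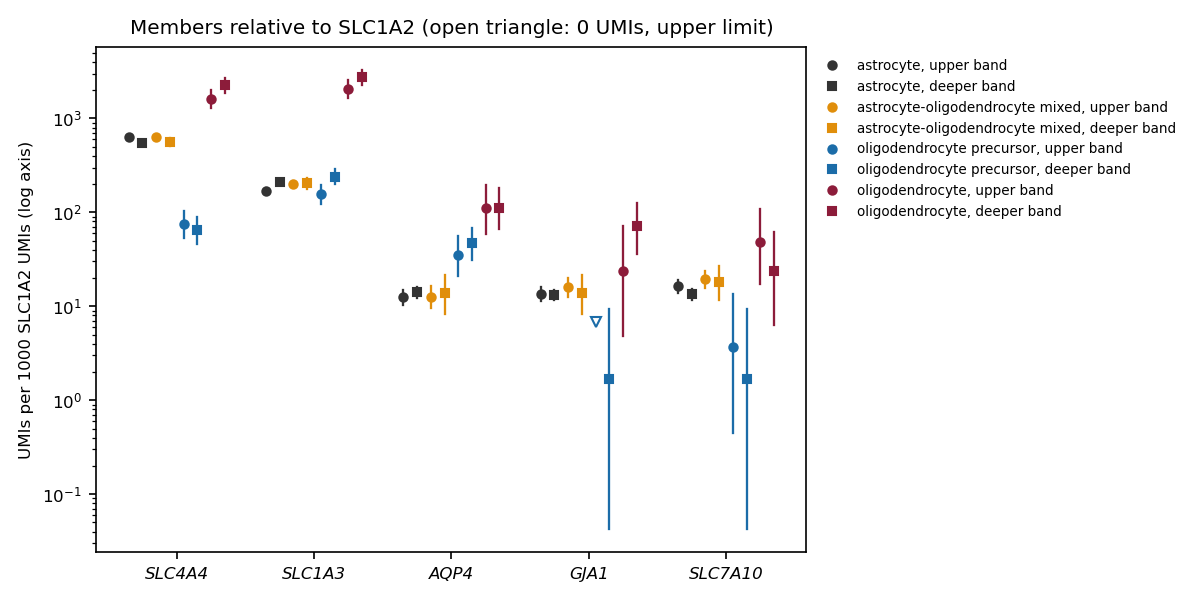
UMIs of 5 of the genes for every 1000 SLC1A2 UMIs, on a log axis, in astrocyte-like nuclei, the unnamed cluster with astrocyte and oligodendrocyte markers, precursor-like and oligodendrocyte-like nuclei, with circles for the upper band, squares for the deeper band and exact 95% intervals as lines. The mixed cluster lies close to the astrocyte-like nuclei for each gene, although its upper-band SLC1A3 interval is above theirs. Precursor-like nuclei are lower for SLC4A4, GJA1 and SLC7A10 and higher for AQP4.

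A cluster with markers of both astrocytes and oligodendrocytes stayed unnamed, with 150 upper-band and 47 deeper-band nuclei at median depths of 5397.5 and 4363 UMIs. SLC1A2 had 4891 and 5985 CPM in it and SLC4A4 had 3112 and 3359 CPM. Its proportions were mostly close to those of astrocyte-like nuclei. For every 1000 SLC1A2 UMIs it had 636.4 and 561.2 SLC4A4 UMIs, 200.8 and 204.8 SLC1A3 UMIs and 15.9 and 13.8 GJA1 UMIs. Its upper-band SLC1A3 value (187.0 to 215.4) was above the 170.9 (162.5 to 179.6) of astrocyte-like nuclei, with intervals that do not overlap. Oligodendrocyte markers summed to 6461 and 5824 CPM in these nuclei.

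Oligodendrocyte-like nuclei had SLC1A3 at 125.5 CPM (110.7 to 141.7) in upper-band nuclei and 110.7 CPM (100.9 to 121.3) in the deeper band. For every 1000 SLC1A2 UMIs that was 2072 and 2734 SLC1A3 UMIs, against 170.9 and 212.2 in astrocyte-like nuclei, so the SLC1A3 in this class did not stand in the astrocyte proportion to SLC1A2. SLC1A2 itself had 60.6 CPM (50.4 to 72.2) and 40.5 CPM (34.6 to 47.1). AQP4 rested on 14 and 19 UMIs, GJA1 on 3 and 12, SLC7A10 on 6 and 4 and GJB6 on 0 and 5.

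Vascular and leptomeningeal-like nuclei, 260 and 151 with median depths of only 1133.5 and 1118 UMIs, had GJA1 at 35.5 CPM (20.7 to 56.8) and 22.8 CPM (7.40 to 53.2) on 17 and 5 UMIs, next in order after the astrocyte-like class in both libraries. SLC4A4 had 240.0 and 246.1 CPM there. SLC1A2 had 283.9 CPM (238.2 to 335.8) in the upper band but 59.3 CPM (31.6 to 101.3) in the deeper band. Microglia-marked nuclei, unnamed because of their low depth (56 and 71 nuclei), had 46 and 26 SLC4A4 UMIs, 15 and 11 SLC1A2 UMIs and 1 and 2 SLC1A3 UMIs. Another unnamed cluster, of 157 and 136 nuclei led by FGD2, IL7R and IKZF1 and with markers of microglia and oligodendrocytes, had SLC1A2 at 1136 and 1008 CPM and SLC4A4 at 710.1 and 528.0 CPM.

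The order of the named classes was led by astrocytes for every gene in both libraries, although for GJB6 in the upper band the step to the vascular class was within counting error. Precursors came next for SLC1A2, SLC1A3 and AQP4 in both libraries, each separated from its neighbours beyond counting error. Inhibitory and then excitatory or vascular nuclei followed for SLC4A4, where excitatory and vascular nuclei did not differ beyond counting error in either library, nor did precursors and oligodendrocytes. For SLC7A10, GJA1 and GJB6 the classes other than the astrocyte-like and, for GJA1, the vascular one were mostly not separated.

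Neurons held much of the SLC4A4 and SLC1A2 RNA outside glia, in amounts that depended on the neuron type. SLC4A4 had 230.0 CPM (225.2 to 234.9) in excitatory nuclei of the upper band and 292.5 CPM (287.1 to 298.0) in those of the deeper band, and 346.9 CPM (334.6 to 359.6) and 446.2 CPM (429.6 to 463.2) in inhibitory nuclei. After thinning it was seen in 26.0% and 31.5% of excitatory and 30.8% and 39.0% of inhibitory nuclei, against 13.2% and 12% of oligodendrocyte-like nuclei. SLC1A2 had 161.3 and 101.8 CPM in excitatory and 84.6 and 66.8 CPM in inhibitory nuclei, and was seen after thinning in 19.9% and 12.6% of excitatory, 11.2% and 7.87% of inhibitory and 9.81% and 5.96% of oligodendrocyte-like nuclei.

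Among excitatory clusters, SLC1A2 was highest in a cluster of 85 and 90 nuclei led by TRPC7, CDHR1 and COL13A1. It had 850.0 CPM there in upper-band and 797.6 CPM in deeper-band nuclei, log2 ratios of 2.54 (2.42 to 2.65) and 3.22 (3.1 to 3.34) over the other excitatory nuclei, and was seen in 76.5% and 64.4% of these nuclei after thinning. The cluster led by HHLA2 had 447.8 and 355.6 CPM and the one led by FOXP2 and SYT6 had 313.7 and 257.6 CPM. The lowest, led by CYP2S1, SYT2 and HNF4G, had 13.2 and 17.4 CPM, with a UMI after thinning in 2.91% and 1.69% of nuclei.

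SLC4A4 had another order over the same clusters. It was at 498.9 and 493.4 CPM in the cluster led by SYT10, at 483.7 and 463.9 CPM in the FOXP2 cluster and at 381.6 and 371.8 CPM in the cluster led by MCHR2. The TRPC7 cluster, highest for SLC1A2, had 110.8 and 62.1 CPM, and the cluster led by IQGAP2 and LGR5 had 44.9 and 37.2 CPM. Among inhibitory clusters it was at 533.5 and 681.3 CPM in the one led by LRRC38, MYO18B and BTBD11 and at 578.5 and 588.7 CPM in the one led by CALB2 and VIP, but at 65.0 and 38.7 CPM in the cluster with SST among its top genes.

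**Figure D5:**
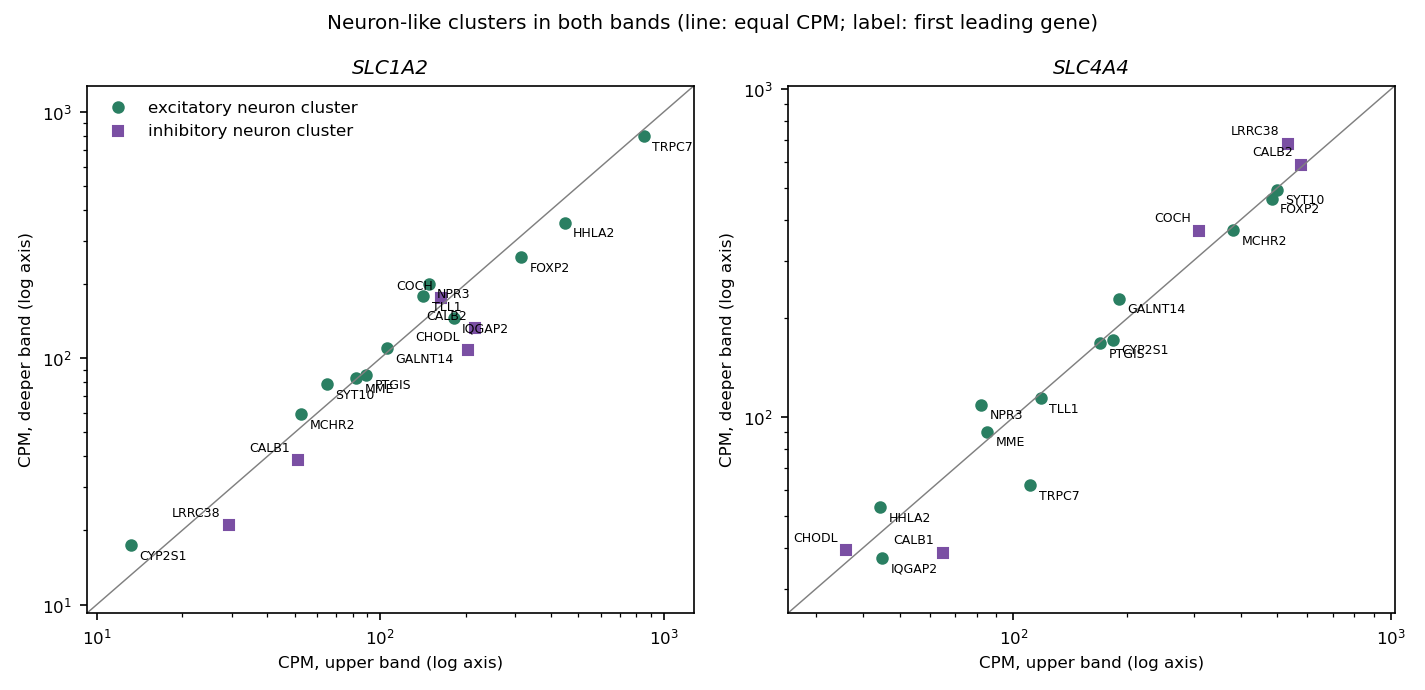
CPM of SLC1A2 (left) and SLC4A4 (right) in each excitatory (circles) and inhibitory (squares) neuron-like cluster, upper band against deeper band on log axes, each labelled with its first leading gene. Most clusters lie near the line of equal CPM while spanning a wide range, from 13.2 to 850.0 CPM for SLC1A2 in the upper band. Among those further off, log2 ratios were -0.84 (TRPC7) and -0.75 (CALB1) for SLC4A4 and -0.71 (CALB2) for SLC1A2.

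The band differences of whole neuron classes were compared with those inside clusters. In excitatory nuclei SLC1A2 had a log2 ratio of -0.66 (-0.72 to -0.61) and was the only 1 of 6 tested members past 1.5-fold lower in the deeper band, where 9.79% of 17564 genes were. Past 1.5-fold higher were 0 of 6, against 5.53% of the genes. Over the 11 clusters with enough UMIs the median ratio was 0.01, with a range of -0.33 to 0.44, and with each cluster given the same weight in both libraries the class ratio was -0.06. SLC4A4 had 0.35 (0.31 to 0.39) in the class, a median of -0.02 over 11 clusters and -0.01 with equal weights. The clusters were unequally shared between libraries, the FOXP2 cluster holding 17.1% and 3.51% of excitatory nuclei and the SYT10 cluster 5.98% and 28.1%.

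In inhibitory nuclei the SLC1A2 difference was nearly unchanged with equal cluster weights, and the SLC4A4 difference remained in part. SLC1A2 had -0.34 (-0.52 to -0.16) in the class and -0.33 with equal weights. SLC4A4 had 0.36 (0.29 to 0.44) and 0.24. Over the 4 clusters with enough UMIs the median was -0.44 for SLC1A2 and 0.14 for SLC4A4, with ranges of -0.71 to 0.10 and -0.75 to 0.35 that held both signs. Of the 4 members tested in this class, 0 were past 1.5-fold in either direction, against 12.1% of 14077 genes.

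AQP4 and SLC1A3 were low in neurons, with exceptions. AQP4 had 4.30 and 3.88 CPM in excitatory nuclei, and after thinning it was seen in 0.443% and 0.610% of them, no more than the 0.903% and 0.663% of oligodendrocyte-like nuclei. The MCHR2 cluster of 429 and 598 nuclei had 16.3 and 11.4 CPM on 77 and 74 UMIs, log2 ratios of 2.68 (2.21 to 3.14) and 2.29 (1.80 to 2.77) over the other excitatory nuclei, with thinned shares of 1.64% (0.660 to 3.34%) and 2.18% (1.17 to 3.71%). SLC1A3 had 3.44 and 2.70 CPM in excitatory nuclei. In inhibitory nuclei it had 42.2 and 36.7 CPM in the SST cluster and 44.4 and 54.4 CPM in the VIP cluster. The LRRC38 cluster had 4.86 and 3.0 CPM, and oligodendrocyte-like nuclei had 125.5 and 110.7 CPM. GJA1 had 10 and 15 UMIs over all excitatory nuclei, SLC7A10 had 28 and 30 and GJB6 had 5 and 6.

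Partner genes of the same pathways were taken from lists of 64 genes, 57 of them with a row. In astrocyte-like nuclei 36 had enough UMIs for the band comparison, and 2 were past 1.5-fold higher and 5 past it lower in the deeper band, with a median log2 ratio of -0.09. Over all 10128 tested genes the shares were 8.92% and 6.74%. SLC3A2, the heavy chain that pairs with SLC7A10, had 36.5 and 66.4 CPM, a ratio of 0.86 (0.36 to 1.39), while SLC7A10 had -0.21. SLC7A8, another exchanger light chain, had 0.67 (0.01 to 1.37). Among the lower genes were the GABA transporter SLC6A11 at -0.76 (-0.96 to -0.57) and the neutral amino acid transporter SLC1A4 at -0.70 (-0.94 to -0.47). The glutamate receptor GRM5 had -0.62 (-0.74 to -0.50), and SLC1A1 had -1.31 (-2.80 to 0.10) on 12 and 8 UMIs. SLC7A8, GRM5 and SLC1A1 were lower in astrocyte-like nuclei than in the rest of both libraries. Their log2 ratios there were -1.56 and -0.66, -1.31 and -1.96, and -2.80 and -3.91. The part of RNA from other cells in their band ratios was not tested.

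Between the subtypes 34 list genes could be compared, and 5 were past 1.5-fold higher and 11 past it lower in CD44/GFAP-high nuclei. Over all 8841 tested genes 22.9% were past it higher and 21.7% lower, so changes of this size were common outside the lists too. SLC6A11 had 6 against 425 UMIs, a log2 ratio of -2.58 (-4.03 to -1.45), and GLDC, of the glycine cleavage system, had 8 against 431 UMIs, a ratio of -2.18 (-3.41 to -1.19). GLUL had 51.7 against 105.2 CPM, a ratio of -1.03 (-2.26 to -0.02). The glutamine carrier SLC38A1 was higher, with 11 against 29 UMIs or 71.1 against 15.8 CPM, a ratio of 2.17 (1.02 to 3.21). This gene was lower in astrocyte-like nuclei than in the rest of each library, with log2 ratios of -1.70 and -2.18. The part of RNA from other cells in its subtype ratio was not tested. Also higher was SLC7A8, with a ratio of 1.12 (0.04 to 2.06). SLC3A2 had 0.71, DAG1 0.91 and SLC4A10 0.95, each with an interval that held 0. SLC7A8 and SLC4A10 were lower in astrocyte-like nuclei than in the rest of each library. Among genes of the complex that anchors AQP4, DMD had 1118 against 2545 CPM, a ratio of -1.19 (-1.41 to -0.97), while DTNA had 0.19 (0.06 to 0.32). AQP4 and DMD thus differed in opposite directions.

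Some partners were barely seen. KCNJ10, the potassium channel gene of astrocyte end-feet, had 1 and 4 UMIs in astrocyte-like nuclei, and KCNJ16 and TRPV4 had 0 in both libraries. Of the other connexin genes with a row, GJA4, GJA5 and GJB1 had 0 UMIs, GJB2 had 0 and 2 and GJD2 had 1 and 0, so among the connexin genes of the list and the 7 genes, GJA1 and GJB6 alone had more than 2 UMIs in a library's astrocyte-like nuclei.

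Genes with the most similar level across classes were ranked by Pearson correlation of log2(CPM + 1) over 12 profiles, 6 named classes in each of 2 libraries, among 10796 genes. The profiles share libraries, depth and the contrast of astrocytes with other classes, so the values are descriptive. The 3 nearest were SUCLG2 (0.98), GPAM and SLC2A5 for AQP4, FADS2 (0.99), MOV10L1 and ARHGEF28 for SLC1A2, and ZBTB20 (0.97), TMEM209 and PRKAG1 for SLC1A3. They were FAM107A (0.97), CA3 and SLC38A3 for GJA1, IMPA2 (0.96), PRELP and PNP for GJB6, USP35 (0.98), AHCYL1 and MPHOSPH9 for SLC4A4, and SLC14A1 (0.98), NWD1 and IZUMO1R for SLC7A10. Among the members themselves AQP4 and SLC1A2 had 0.93 and AQP4 and GJA1 had 0.43.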

How the data were processed

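For each library the authors deposited UMI counts per gene and barcode, raw whole numbers per the file headers and values. The matrix header gives software version 3.1.0 and the submitters' processing notes name Cell Ranger 6.2.1 and 2.1.1. The genome build and annotation are not given in the sources used here. The 7 genes and the gene lists were chosen with earlier results of these data known. Nuclei with 500 or more genes were kept (7091 and 9608), and Scrublet at its automatic threshold removed 830 (11.7%) and 1458 (15.2%), against expected rates of 5.67% and 7.69%. No free RNA correction was made. Both libraries were clustered together (scanpy 1.11.5, igraph 0.11.9, Python 3.11.15; 2000 variable genes without the 6 members among them, 30 components, 15 neighbours, Leiden resolution 1).

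A cluster took the class with most raised markers (CPM at least 0.333 of the highest cluster, a UMI in 10% of nuclei or more, at least 3 markers). It stayed unnamed with 5 or more markers of another class raised 2-fold, with its top 10 genes holding more markers of another class, or with low depth and no own marker there. CD44/GFAP-high clusters exceed the astrocyte-like CPM of both genes, with both libraries summed. Genes with 20 or more UMIs over both groups entered a comparison. All 7 members are named, and list genes if past 1.5-fold, a named partner or at 0. Intervals were tested on simulated data. Scaling, doublets, filters, clustering, thinning and class make-up were varied.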

Additional observations from a re-analysis of the deposited data

Results flagged for a closer look

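SLC1A2 was close between bands in astrocyte-like nuclei but lower in the deeper band in the other named classes. Its log2 ratio, deeper over upper band, was 0.068 (0.034 to 0.10) in astrocyte-like nuclei and ran from 0.0015 to 0.33 across settings. It was -0.66 in excitatory, -0.34 in inhibitory, -0.58 in oligodendrocyte-like, -0.21 in precursor-like and -2.26 in vascular and leptomeningeal-like nuclei. SLC4A4 had -0.13 in astrocyte-like nuclei and 0.35 in excitatory and 0.36 in inhibitory nuclei. With 1 library per band the differences between classes were not tested. With equal cluster weights the excitatory ratios were -0.06 for SLC1A2 and -0.012 for SLC4A4.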

How the results depend on the processing

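No paired analysis was possible because each band had 1 library, and for the same reason no library could be left out. In astrocyte-like nuclei the members' median band ratio of 0.07 became 0.028 with CPM averaged over nuclei, 0.23 after thinning to 1500 UMIs, 0.33 with the mixed astrocyte and oligodendrocyte cluster added and -0.0057 in CD44/GFAP-low nuclei alone. SLC4A4 turned from -0.13 to 0.13 with the mixed cluster added and, in excitatory nuclei, from 0.35 to -0.012 with equal cluster weights. At 2-fold, 0 members passed in place of 1. SLC1A3 stayed between 0.32 and 0.56.

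The members' median log2 excess over other nuclei of the deeper band was 6.03. It became 6.47 with 2 times as many doublets removed, 5.23 with no doublet removal, 5.90 in CD44/GFAP-low nuclei alone, 4.88 with CPM averaged over nuclei, 4.96 after thinning and 6.27 with the mixed cluster added. The median of CD44/GFAP-high over -low nuclei was -0.56, and -0.24 when astrocyte-like nuclei were clustered on their own. Across the settings that gave a value AQP4 stayed between 1.34 and 2.07 and SLC7A10 between -2.24 and -0.97. With no doublet removal and at resolution 0.5 there was no separate CD44/GFAP-high cluster. The cause of these shifts was not tested. The CD44/GFAP-low restriction, the separate clustering and the equal cluster weights were chosen after seeing the data. GJB6, with 9 and 29 astrocyte-like UMIs, is limited by depth throughout.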
